A study of Rattus norvegicus with 6 samples.

Results

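The microRNAs (miRNAs) described here are miR-15b-5p, miR-16-5p, miR-195-5p, miR-322-5p, miR-503-5p and miR-542-5p, 6 of the 728 mature rat miRNA probe sets in the value table of 1277 probe sets. The first 5 are the miR-15/16 family in its wide sense, taken by probe set (MIMAT0000784_st, MIMAT0000785_st, MIMAT0000870_st, MIMAT0001619_st and MIMAT0003213_st in the order given), and miR-542-5p was added as a neighbour of miR-503-5p on the X chromosome. miR-503-5p and miR-542-5p are also on the authors' list of 22 differential miRNAs (3.02% of the mature probe sets), which was drawn up from the same 6 arrays. The authors' p-values in the authors' deposited table, 0.0159 for miR-503-5p and 0.0228 for miR-542-5p, come from the same contrast. The group differences of these 2 are therefore given as a description without a test. The other 4 are not on that list, but all 6 were chosen with earlier results of these data known. The p-values and intervals given for those 4 are therefore a description as well.

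The cells were cardiac stem cells (CSCs) from hearts of Sprague Dawley rats aged 4 weeks. The exosome group (3 arrays) consisted of CSCs kept for 3 days in medium with exosomes, small secreted vesicles, from bone marrow mesenchymal stem cells at passage 4. The untreated group (3 arrays) consisted of CSCs without exosomes. The vesicles were precipitated with a polymer reagent, and neither group is described as given a precipitate without vesicles. Total RNA from whole cultures was hybridised to Affymetrix miRNA 4.0 arrays, so miRNA carried in by vesicles and miRNA made by the CSCs cannot be told apart, nor can fewer cells of a type and less RNA per cell. Whether the replicates were separate cultures is not stated, and p-values then measure the spread between arrays only. None of 19 marker miRNAs of blood, endothelial, muscle, epithelial, liver or neural cells is named in the files, so the cell type was not checked.

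miRNAs of the miR-15/16 family guide repressor complexes to messenger RNAs mainly through the seed, bases 2 to 8 from the 5′ end. Their known targets include cyclins and other drivers of the cell cycle and the survival protein Bcl2, and in mice the family restrains division of heart muscle cells after birth. miR-322 is the rodent counterpart of human miR-424. In mice the pair miR-322 and miR-503 has been tied to cell cycle exit in muscle cells and to early cardiac progenitors.

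The mature sequences (RefSeq, build GRCr8) are shown 5′ to 3′ with the seed in capitals, because the seed is what separates the 6 miRNAs into groups.
miR-15b-5p: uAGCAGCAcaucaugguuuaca
miR-16-5p: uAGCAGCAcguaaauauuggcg
miR-195-5p: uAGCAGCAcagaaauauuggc
miR-322-5p: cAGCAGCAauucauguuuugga
miR-503-5p: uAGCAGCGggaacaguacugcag
miR-542-5p: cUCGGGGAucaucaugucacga
The seed AGCAGCA was shared by miR-15b-5p, miR-16-5p, miR-195-5p and miR-322-5p. The seed of miR-503-5p differed from it at the last base alone (A8G, counted from the 5′ end of miR-15b-5p). miR-542-5p matched the AGCAGCA seed at 2 of 7 positions and the miR-503-5p seed at 1, so it is a neighbour and not a family member by sequence. Read from the 5′ end without gaps, miR-16-5p and miR-195-5p were the closest pair, with 19 of 21 positions the same. miR-15b-5p and miR-322-5p shared 16 of 22 positions, and miR-503-5p shared 11 or 12 with each of the other 4 family members. Probe sets for sequences this close can share signal, which was not tested.

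The 6 miRNAs come from 3 places in the GRCr8 annotation. miR-15b-5p (chromosome 2, 155555197 to 155555218, plus strand) and miR-16-5p (155555343 to 155555364) have hairpin genes that span 244 bases inside Smc4, which encodes a condensin subunit. miR-195-5p (chromosome 10, 55450509 to 55450529, plus strand) lies beside miR-497-5p, whose probe set is not named in the files and was not analysed here. miR-322-5p (chromosome X, 137726198 to 137726219, minus strand), miR-503-5p (137725899 to 137725921) and miR-542-5p (137722223 to 137722244) lie in a stretch of 5309 bases. It also holds hairpin genes of miR-351, miR-450a and miR-450b, and was not searched for further ones. The hairpin genes of miR-322 and miR-503 span 386 bases, and both lie inside the gene LOC102550366. The authors' deposited table, which names no genome build, places miR-503-5p at 139999913 to 139999935 and miR-542-5p at 139996237 to 139996258 of the X chromosome.

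After exosome treatment miR-322-5p, miR-503-5p and miR-542-5p, the 3 analysed here from the X-linked stretch, had higher signals than in untreated CSCs on every array, as did 37.4% of the 171 mature probe sets with a mean log2 signal of at least 5. miR-503-5p and miR-542-5p are on the authors' list from this contrast, so no pattern of the locus is read from this. The other hairpins of the stretch were not analysed here. For miR-15b-5p, miR-16-5p and miR-195-5p the groups overlapped. Signals are on the log2 scale, on which a difference of 1 is a doubling. Differences between the groups (exosome minus untreated) ran from 0.06 log2 for miR-16-5p to 1.85 log2 for miR-503-5p. The median difference of the 6, which include the 2 on the authors' list from this contrast, was 0.80 log2 as deposited. It was 0.35 log2 after quantile normalization and 0.43 log2 after centring each array on its bright miRNAs. As deposited, the median over all 728 mature probe sets was 0.08 log2, and over the 171, to which all 6 belong, it was 0.39 log2. After quantile normalization the medians over the 728 and the 171 were 0.008 and 0.057 log2. After centring on bright miRNAs they were -0.29 and 0.014 log2.

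miR-503-5p had log2 signals of 8.33, 8.44 and 8.32 in the exosome group, against 7.29, 6.54 and 5.69 in the untreated group. The exosome arrays lay within 0.12 log2 of each other and the untreated arrays within 1.60 log2, and the lowest exosome array was 1.03 log2 above the highest untreated one. The difference was 1.85 ± 0.39 log2 (SE, n = 3 per group), or 3.62-fold. It was 1.22 log2, a smaller fold, after quantile normalization, which forces the arrays to one distribution of signals. Without untreated replicate 3, the lowest array, it was 1.45 log2. In the authors' deposited table the fold is 3.37 and the false discovery rate 0.329, and the probe set was called detected on all 6 arrays.

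miR-322-5p, the neighbour of miR-503-5p and the member of the stretch that carries the AGCAGCA seed, had log2 signals of 6.40, 6.55 and 5.87 in the exosome group, against 5.45, 5.42 and 4.19 in the untreated group. All exosome arrays were above all untreated arrays, by at least 0.42 log2. It was 1.25 ± 0.39 log2 (SE, n = 3 per group) or 2.39-fold higher in the exosome group, with a 95% interval of 0.32 to 2.19 log2. limma's unadjusted p was 0.0168 and its adjusted p over all 728 probe sets was 0.288, so the difference did not pass the threshold of 0.05. miR-322-5p is not on the authors' list.

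miR-542-5p had log2 signals of 6.90, 6.80 and 6.24 in the exosome group, against 5.76, 6.01 and 5.68 in the untreated group. The groups did not overlap, and the gap between the lowest exosome and the highest untreated array was 0.23 log2. The difference was 0.83 ± 0.21 log2 (SE, n = 3 per group), or 1.77-fold. It was 0.37 log2 after quantile normalization and 0.45 log2 after each array was centred on its bright miRNAs. The authors' deposited table gives a fold of 1.65, a false discovery rate of 0.329 and detection on all 6 arrays.

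miR-195-5p, a member known in mice for limiting division of heart muscle cells, had log2 signals of 6.38, 6.97 and 5.87 in the exosome group, against 6.41, 5.30 and 5.17 in the untreated group. The groups overlapped, since untreated replicate 1 was above exosome replicates 1 and 3. The difference was 0.78 ± 0.42 log2 (SE, n = 3 per group), with a 95% interval of -0.24 to 1.81 log2, and limma's adjusted p was 0.448. Without untreated replicate 1 it was 1.18 log2 and without exosome replicate 2 it was 0.50 log2, with limma's adjusted p at 0.321 and 0.791. It was 0.32 log2 after quantile normalization and 0.41 log2 after centring on bright miRNAs.

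miR-15b-5p had log2 signals of 10.78, 10.56 and 10.20 in the exosome group, against 10.69, 10.38 and 9.84 in the untreated group. The groups overlapped, with exosome replicate 1 the highest array and untreated replicate 3 the lowest. The difference was 0.21 ± 0.26 log2 (SE, n = 3 per group), with a 95% interval of -0.43 to 0.85 log2 and a limma adjusted p of 0.803. Its sign turned under other scalings, to -0.02 log2 after quantile normalization and -0.17 log2 after centring on bright miRNAs, and without untreated replicate 3 it was -0.02 log2.

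miR-16-5p, an abundant miRNA often used as a reference in miRNA assays, had log2 signals of 13.22, 13.22 and 13.14 in the exosome group, against 13.26, 13.25 and 12.91 in the untreated group. Apart from untreated replicate 3 the arrays lay within a narrow band. The difference was 0.06 ± 0.14 log2 (SE, n = 3 per group), with a 95% interval of -0.29 to 0.41 log2 and a limma adjusted p of 0.920. It was also of the other sign after quantile normalization (-0.03 log2), after centring on bright miRNAs (-0.32 log2), after centring on untreated replicate 2 (-0.05 log2) and without untreated replicate 3 (-0.06 log2).

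**Figure D1:**
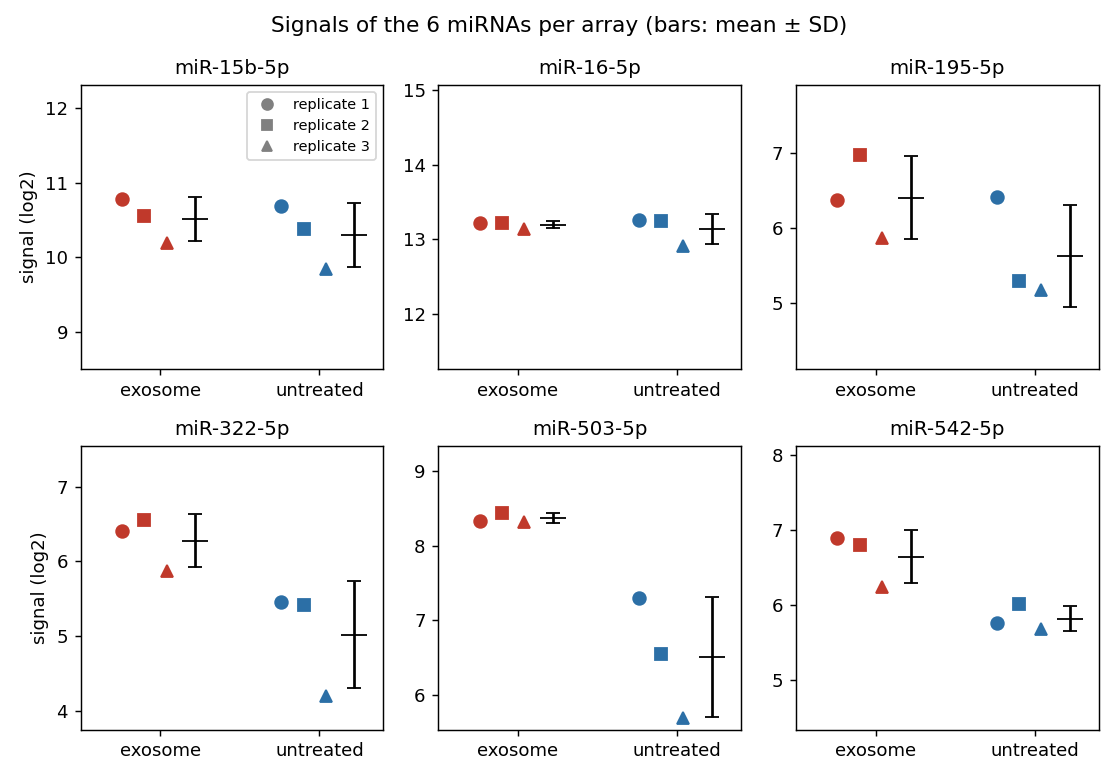
Log2 signals of the 6 miRNAs on each array, with 1 panel per miRNA, exosome arrays in red and untreated arrays in blue, the marker shape giving the replicate number and the black bar the mean ± SD (n = 3). All panels span the same number of log2 units, and only miR-322-5p, miR-503-5p and miR-542-5p have every exosome array above every untreated array.

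Counts over the 6 were read against all mature probe sets. In 3 of the 6 every exosome array was above every untreated array, against 15.9% of the 728 mature probe sets and 37.4% of the 171 with a mean of at least 5. In 0 of the 6 was every exosome array below every untreated array, against 3.71% of the 728. A signal at least 1.5-fold higher in the exosome group was found for 4 of the 6. On the same deposited scale it was found for 13.2% of the 728 and 33.3% of the 171. After quantile normalization or centring on bright miRNAs it was found for 2 of the 6 (miR-503-5p and miR-322-5p). The shares of all probe sets on those 2 scales were not counted, so this last count has no background here. miR-503-5p and miR-542-5p, chosen on this contrast, are in both counts on the deposited scale, so nothing about the family is read from them. Ordered by the signed difference, highest first, miR-503-5p stood 5th of 728 and miR-322-5p 14th, whereas miR-542-5p was 45th, miR-195-5p 51st, miR-15b-5p 253rd and miR-16-5p 400th. limma gave an adjusted p under 0.05 for 0 of 728 probe sets (0%), with 106 (14.6%) at an unadjusted p under 0.05, 88 of them (12.1%) higher in the exosome group, and 0 of the 4 members tested passed. Without exosome replicate 3 the number was 23 and without untreated replicate 1 it was 1, and none of the 4 tested members was among them, the smallest adjusted p of miR-322-5p over all settings being 0.113.

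**Figure D2:**
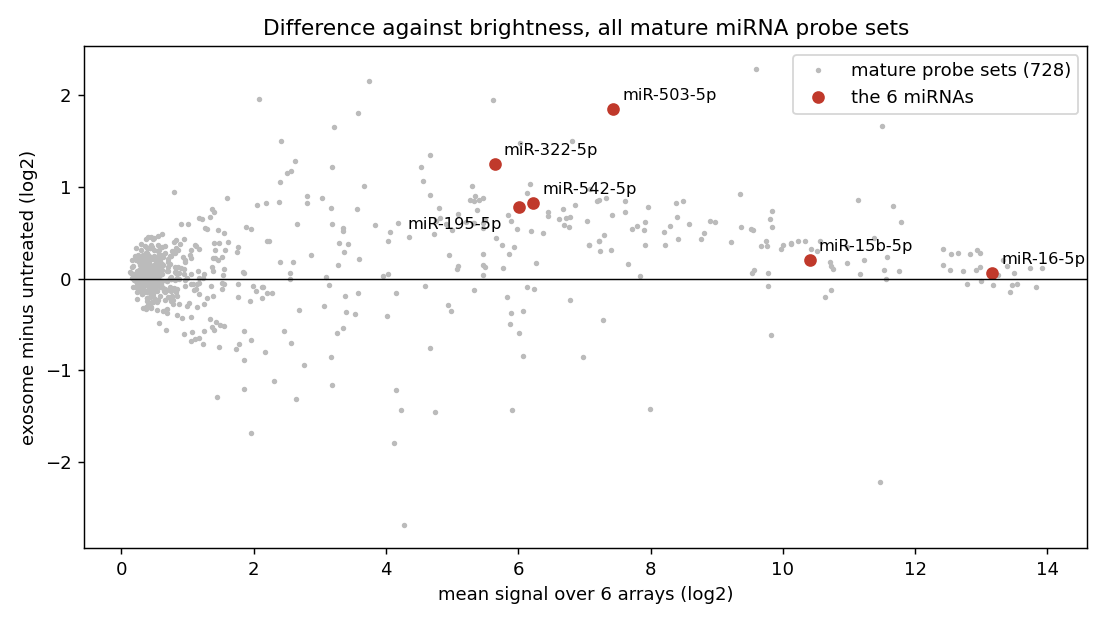
Exosome minus untreated difference (log2) against the mean log2 signal over the 6 arrays for all 728 mature probe sets (grey) and the 6 miRNAs (red). miR-503-5p and miR-322-5p lie toward the upper edge of the cloud at signals between 5 and 8, and miR-16-5p and miR-15b-5p lie near 0 among the brightest probe sets.

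The arrays also differed over the bright probe sets as a whole. Their order matched that over the 6 miRNAs in the exosome group but not in the untreated group. Over the 171 bright probe sets the median deviation from the 6-array mean was 0.25, 0.33 and 0.02 log2 in exosome replicates 1, 2 and 3, against -0.25, -0.05 and -0.24 log2 in untreated replicates 1, 2 and 3. Over the 6 miRNAs it was 0.52, 0.73 and -0.01 log2 in the exosome group, against -0.02, -0.23 and -0.71 log2 in the untreated group. The third array was the lowest of its group for 6 of the 6 miRNAs in the exosome group and for 6 of the 6 in the untreated group. Among the 171 bright probe sets this held for 67.8% in the exosome group, 50.3% in the untreated group and 40.4% in both. The 27 hybridization control probe sets deviated by -0.10 to 0.06 log2 on exosome arrays, against -0.32, -0.05 and 0.36 log2 on untreated replicates 1, 2 and 3. The part of these array differences in the results was not tested beyond the scalings given.

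Centring each array on its bright miRNAs shifted the median of all mature probe sets to -0.29 log2. On that scale 4 of the 6 miRNAs were higher in the exosome group, against 21.2% of the 728 and 50.3% of the 171. The 4 differences were 1.48 log2 for miR-503-5p, 0.88 log2 for miR-322-5p, 0.45 log2 for miR-542-5p and 0.41 log2 for miR-195-5p. miR-15b-5p and miR-16-5p were lower. limma's adjusted p for miR-322-5p was then 0.204. After quantile normalization the same 4 were higher, against 52.6% of the 728 and 60.8% of the 171. Their differences were then 1.22 log2 for miR-503-5p, 0.84 log2 for miR-322-5p, 0.37 log2 for miR-542-5p and 0.32 log2 for miR-195-5p. The order of the 4 differences was the same under the 3 scalings, but miR-542-5p and miR-195-5p were 0.04 to 0.05 log2 apart, well inside the SE of either.

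**Figure D3:**
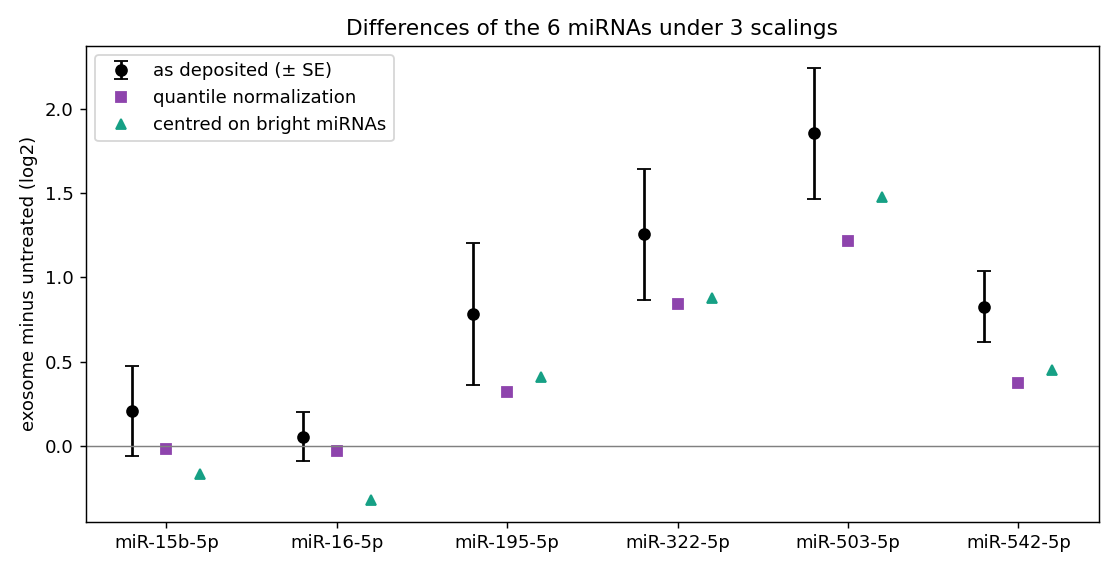
Exosome minus untreated difference (log2) of each miRNA on the deposited scale (black, ± SE, n = 3 per group), after quantile normalization (purple) and after centring on bright miRNAs (green). miR-503-5p and miR-322-5p keep the largest differences under all 3 scalings, and miR-15b-5p and miR-16-5p change sign.

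Likeness over the 6 arrays was measured as Pearson's r of the log2 signals, among the 171 bright probe sets, as a description. For miR-503-5p the most similar was miR-18a-5p (r = 0.985), followed by 2 unnamed probe sets (r = 0.984 and 0.973). miR-322-5p stood 9th of 170 for miR-503-5p (r = 0.939), miR-542-5p 44th (r = 0.816) and miR-195-5p 46th (r = 0.809). miR-15b-5p stood 80th (r = 0.642) and miR-16-5p 87th (r = 0.591). For miR-542-5p the closest were 2 unnamed probe sets (r = 0.982 and 0.980) and miR-350 (r = 0.979). miR-322-5p stood 37th for it (r = 0.888), miR-503-5p 64th (r = 0.816) and miR-195-5p 94th (r = 0.673). miR-15b-5p stood 108th (r = 0.574) and miR-16-5p 126th (r = 0.424). All these probe sets share the same 6 RNA samples and the shift of bright miRNAs, whose part in r was not tested. Both groups enter r together, so it includes the group difference on which miR-503-5p and miR-542-5p were listed. Apart from the 6, only miRNAs on the authors' list could be named here. miR-18a-5p and miR-350 were therefore also listed on this contrast, and no shared regulation is read from r.

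Predicted targets are given by the authors for miR-503-5p and miR-542-5p, since their table covers the 22 listed miRNAs only. miRanda aligns a miRNA to a gene's sequence and gives an alignment score and a free energy, more negative for more stable pairing. There were 284 genes and 304 sites for miR-503-5p, and 74 genes and 74 sites for miR-542-5p. By number of genes these were 7th and 19th of the 22 miRNAs. Scores ran from 151 to 184 for miR-503-5p (median 155) and from 151 to 180 for miR-542-5p (median 154). The median energies were -25.02 and -24.05. No mRNA or protein was measured for these genes.

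**Figure D4:**
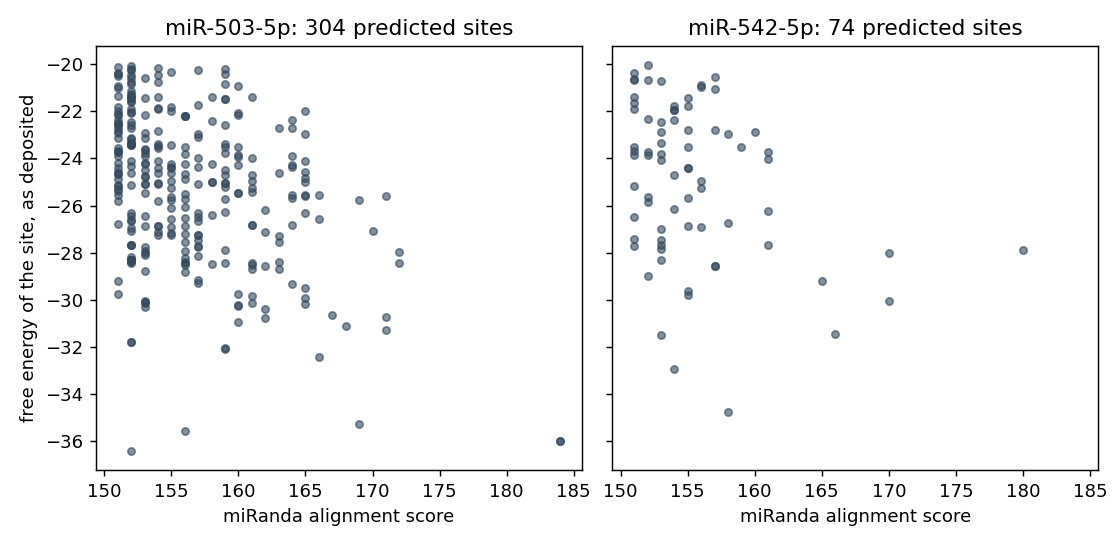
Free energy against miRanda alignment score of every predicted site of miR-503-5p (left, 304 sites) and miR-542-5p (right, 74 sites), as deposited by the authors. Most sites lie near the lowest scores, and single sites reach 184 and 180.

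The sites of miR-503-5p divided by the base opposite the one that separates its seed from that of its relatives. The 7 letters opposite bases 2 to 8 were CGCTGCT, the complement of the miR-503-5p seed, in 155 of 304 sites (51.0%) in 151 genes. In 118 sites (38.8%) in 106 genes they were TGCTGCT, the complement of the AGCAGCA seed of miR-15b-5p, miR-16-5p, miR-195-5p and miR-322-5p, with miR-503-5p itself making a G:U pair at base 8. Searched on the given strand of the whole site strings, TGCTGCT was held by 41.1% of the miR-503-5p sites, 0 of 74 miR-542-5p sites and 0.705% of the 6098 sites of the other 20 miRNAs. The miRanda sites were found by pairing to the miRNA, so these shares describe the method's choice of sites. For miR-542-5p 51 of 74 sites (68.9%) held TCCCCGA, the complement of its own seed. The share of sites with the complement of the own seed ran from 36.0% to 89.8% over the other 20 miRNAs, with a median of 65.5%. Of the miR-503-5p sites, 28 in 18 genes held GCT 4 times in a row, and 27 of these 28 were among the 118.

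The following predicted sites of miR-503-5p are shown as the strand of the gene sequence, 5′ to 3′, with the letters opposite bases 2 to 8 of the miRNA in capitals, because they include the cell cycle and growth factor genes of the lists used here.
Ccnd1: tttcatgttgttttCGCTGCTa
Cdc25a: ctgtagactggtatTGCTGCTa
Cxcl12: tttgtgtatcaattcCGCTGCTg
Crkl: ttgctgtgctgtcccTGCTGCTg
Ky: aagtggaggtgttacCGCTGCTg
Ccnd1 encodes cyclin D1, which drives entry into the cell cycle, and its site had a score of 170 and an energy of -27.09. Cdc25a, a phosphatase that activates cyclin-dependent kinases, had a score of 151 and an energy of -29.22, and its site letters are the complement of the AGCAGCA seed. Cxcl12, a chemokine that attracts progenitor cells, had 2 sites with the same letters, each with a score of 158. Ccnd1 was predicted for 4 of the 22 miRNAs, Cxcl12 for 5 and Cdc25a for miR-503-5p alone.

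The cell cycle list had 2 of 16 genes among the miR-503-5p predictions, Ccnd1 and Cdc25a, and the angiogenesis and growth factor list had 1 of 12, Cxcl12. The lists for apoptosis, TGF-beta with BMP and activin, PI3K with mTOR, Wnt with Notch, and heart transcription factors had 0 of 10, 14, 8, 8 and 9 genes. For miR-542-5p all 7 lists had 0 genes. Predicted for any of the 22 miRNAs were 8 of the 16 cell cycle genes and 4 of the 12 growth factor genes. In the other lists, in the order given, these were 5, 4, 2, 4 and 3 genes. Among all 4260 predicted genes, 284 were predicted for miR-503-5p and 74 for miR-542-5p. With so few list genes predicted at all, no contrast between the lists is read from these counts. No enrichment was tested, because the background of genes that miRanda searched is unknown here.

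The highest score of miR-503-5p, 184, belonged to LOC100363310 and LOC682888, which share the same site letters. The next named genes were Pcp4, a calmodulin-binding protein gene (score 172), Irak1bp1 and Prkd3, a protein kinase D gene (171 each), Ccnd1 (170), and Crkl, a signalling adaptor gene, and Ky, a muscle peptidase gene (169 each). RGD1311463 (172) and RGD1305680 (171) complete the first 10. Ccdc32 and Rai2 were among the genes with most sites, 3 each, and their sites are runs of GCT that overlap each other.

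For miR-542-5p the highest scores belonged to Ky (180), RGD1306410 and Zbtb44 (170 each), Gng7 (166) and Cdc2l6 (165). They were followed by Mesp1, a transcription factor of early cardiac mesoderm, Prdm1, a transcriptional repressor, LOC100233176 and Slc35e1 (161 each), and Gpkow (160). The first and the cardiac site are shown with the letters opposite bases 2 to 8 in capitals.
Ky: cagtaacatggtgtTCCCCGAt
Mesp1: taccaacatgggcgTCCCCGAg
Genes predicted for both miR-503-5p and miR-542-5p numbered 4, which is 1.41% of the 284 and 5.41% of the 74: Ccdc32, Ky, Ppm1l, a protein phosphatase gene, and Slc7a1, a cationic amino acid transporter gene. Ppm1l was predicted for 6 of the 22 miRNAs, Ky and Slc7a1 for 5 each and Ccdc32 for 3. Over all 22 miRNAs 4260 genes were predicted, 284 of them for miR-503-5p. The overlap of 4 was not tested against this background, and no link between the 2 miRNAs is read from it.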

How the data were processed

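The deposited values were log2 signals per array, with columns marked as RMA with detection above background, per the file headers. MAS5 and Affymetrix Expression Console are also named, per the submitters' processing notes, so which method made the signals is not settled. RMA usually includes quantile normalization, yet bright probe sets shifted between these arrays, and whether the quantile alternative repeats a step of the authors is unknown. The authors' deposited table of 22 miRNAs adds a p-value, a false discovery rate, linear geometric mean intensities, a fold ratio and detection calls for each. Its miRanda tables hold an alignment score and an energy for each site as deposited. Detection calls of the other 4 miRNAs were not used here. The number of arrays limits the precision.

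The 728 mature probe sets were fitted with limma 3.58.1 in R 4.3.3 (lmFit and eBayes, no covariates), with Benjamini-Hochberg adjustment over all of them and a threshold of 0.05, and the fit was tested on simulated data. Bright probe sets had a mean log2 signal of at least 5. Alternatives were quantile normalization, centring, filters, a floor, an intensity trend, hairpins, leaving out single arrays, and the replicate number as a block. Member names of probe sets come from RefSeq tables or the authors' table.

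The members and lists were chosen with earlier results of these data known. Named predicted genes were those of both miRNAs, the 10 highest scores of each, those with most sites, and members of the 7 lists. Some genes that meet this rule are not reported here. Other predicted genes are named in the closing section only.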

Additional observations from a re-analysis of the deposited data

How the results depend on the processing

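miR-322-5p and miR-195-5p were higher in the exosome group under all 14 alternatives run. The filter on the mean, the floor, the intensity trend, the hairpins and the replicate block left both differences unchanged. Only the other scalings and leaving out arrays could therefore turn the sign. limma's adjusted p lay between 0.113 and 0.652 for miR-322-5p and between 0.230 and 0.822 for miR-195-5p. For miR-15b-5p the difference was -0.0186 log2 with quantile normalization and -0.17 log2 with centring on bright miRNAs, and for miR-16-5p it was -0.0272 and -0.32 log2. Centring on untreated replicate 2, an alternative chosen after seeing the data, gave -0.0462 log2 for miR-16-5p. Quantile normalization gave 1.22 log2 for miR-503-5p and 0.37 log2 for miR-542-5p, and centring on bright miRNAs gave 0.45 log2 for miR-542-5p. The cause of these changes was not tested.

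Leaving out each array in turn gave -0.0245 to 0.40 log2 for miR-15b-5p, -0.0596 to 0.12 for miR-16-5p, 0.50 to 1.18 for miR-195-5p, 0.84 to 1.47 for miR-322-5p, 1.45 to 2.25 for miR-503-5p and 0.70 to 1.03 for miR-542-5p. The negative values of miR-15b-5p and miR-16-5p came without untreated replicate 3. The number of mature probe sets with an adjusted p under 0.05 in limma was 0 to 23, with 23 without exosome replicate 3 and 1 without untreated replicate 1.

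With the replicate block the number was 0 by limma, with 111 at an unadjusted p under 0.05, and the adjusted p of miR-322-5p was 0.173. Deviations of same-numbered arrays correlated at 0.04, 0.32 and 0.29, and those of differently numbered arrays at -0.38 to 0.24. The labels do not say whether the numbers pair the arrays, and these values do not settle it. The main fit therefore used no pairing, and the replicate block is given as the alternative.

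The predicted genes of miR-503-5p numbered 73 with scores of at least 160 and 143 with energies of at most -25. Those of miR-542-5p numbered 10 and 32.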

Other observations

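Other predicted genes of miR-503-5p, chosen after their values were seen, belong to growth factor signalling and to the heart. Those of growth factor signalling include Gab1, an adaptor gene (score 165), the kinase genes Map2k1 (164) and Mapk3 (155), and Nras (154). Apln, which encodes the peptide apelin, had 2 sites (163 and 152). Grem1 (152) encodes a secreted inhibitor of BMPs, and Inhbb (156) encodes an activin subunit. Mybpc3, a sarcomere gene, had a score of 152, near the lowest score kept. For miR-542-5p, Rbm20, a splicing factor gene of heart muscle, and Spry2, an inhibitor of growth factor signalling, had scores of 154 each, and Igf2r had 155. These are single picks from 284 and 74 genes, and no theme was tested.

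The authors' deposited folds of miR-503-5p and miR-542-5p are smaller than those of the deposited signals. They are 3.37 against 3.62 for miR-503-5p and 1.65 against 1.77 for miR-542-5p. Over the 22 listed miRNAs the log2 of the authors' geometric mean minus the mean signal had a median of -0.07 in the exosome group and 0.03 in the untreated group, a net of -0.10 log2. Centring each array on untreated replicate 2 shifted the differences by -0.10 log2 as well. On that scale miR-503-5p differed by 1.75 log2 and miR-542-5p by 0.72 log2.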
